A study of Homo sapiens with 6 samples.

Results

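ENSG00000229855 and ENSG00000279860 are neighbouring non-coding genes in band q23 of chromosome 5. They are described here with 5 protein-coding genes around them, *PRR16*, *FTMT*, *SRFBP1*, *LOX* and *SNCAIP*, which makes 7 of the 60651 genes in the tables. The non-coding pair was selected on the contrast of the libraries labelled Tet with those labelled EtOH, in which both genes were higher, so their difference between the groups is a description without a test. The other 5 genes were named for their position. The question was how far along the chromosome the higher level in libraries labelled Tet reached.

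Total RNA was sequenced after removal of ribosomal RNA in 6 samples of a human neuroblastoma cell line, from a tumour of the developing sympathetic nervous system. The 3 libraries titled EtOH were tagged as control, and the 3 titled Tet came from cells given tetracycline for 5 days and tagged as induction. The labels disagreed on the cell model: the titles name IMR575, whereas the protocol text describes SK-N-SH cells, grown as single clones under G418 and blasticidin, in which a tetracycline repressor controls a *MYCN* transgene, and a tag reads knockdown. The study's methods describe inducible *MYCN* in SK-N-AS cells and, in IMR-5/75 cells, an shRNA against it, so libraries are called by their label throughout.

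*MYCN*, the transcription factor that tetracycline was meant to regulate, stood at 158, 256 and 156 CPM (counts relative to each library's total after TMM normalisation) in the EtOH-labelled libraries and at 197, 200.1 and 145 CPM in the Tet-labelled ones. The groups overlapped, and the log2 fold change was -0.07 (SE 0.23, adjusted p = 0.956 by edgeR) and 0.21 (adjusted p = 0.510) without EtOH replicate 2, so *MYCN* RNA did not check the labels. Library totals lay between 27933378 and 40498065 counts, at which 3 counts equal 0.0755 to 0.108 CPM. EtOH replicate 2 stood apart on the first principal component of all genes (score 84.2). Tet replicate 2 was next at 47.3, so replicate 2 scored highest in both groups. After removal of the group means, the libraries numbered 2 correlated at 0.510. Values without EtOH replicate 2 are given beside the neighbours and marker lists. Leaving out only that library does not take the replicate number into account. The summed level of 8 adrenergic neuroblastoma markers was 425 to 469.9 CPM in the EtOH-labelled libraries and 536 to 640.3 CPM in the Tet-labelled ones (0 of 6 tested were called, and 1, *ISL1*, at a log2 fold change of 1.44 and adjusted p = 0.0174 by edgeR without EtOH replicate 2), with *HAND2* and *GATA3* high and the catecholamine enzymes *TH* and *DBH* at or near 0. Marker sums stayed at or below 4.78 CPM for Schwann cells and 1.2 CPM for leukocytes. The labels do not say whether replicates were separate cultures, so p-values measure the spread between these libraries.

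Long non-coding RNAs are transcripts without a long reading frame, and some act on the transcription of genes close by on the same chromosome, whereas others act elsewhere or have no known role. Neither non-coding gene has a function that is stated here. The neighbours belong to unrelated families. *PRR16* (Largen) is a proline-rich protein linked to cell size, *FTMT* is mitochondrial ferritin, *SRFBP1* binds serum response factor, *LOX* is the lysyl oxidase that cross-links collagen and elastin, and *SNCAIP* encodes synphilin-1, a protein of nerve terminals.

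On GRCh38, *PRR16* lies furthest upstream, on the plus strand (chr5:120464300-120687332). After a gap of 477354 bases comes ENSG00000229855, annotated as a lncRNA on the plus strand (chr5:121164687-121359869) with 6863 exon bases in 12 blocks. ENSG00000279860 begins 3132 bases beyond its end on the same strand (chr5:121363002-121365314). It is a single exon of 2313 bases in the annotation class TEC, which marks transcripts still to be tested by experiment. A further 486567 bases separate it from *FTMT* (chr5:121851882-121852833, plus strand, 1 exon), which is followed by *SRFBP1* (chr5:121961975-122075570, plus strand). *LOX* (chr5:122063195-122078413) runs on the minus strand and overlaps the end of *SRFBP1* by 12376 bases, and *SNCAIP* (chr5:122311354-122464219, plus strand) follows at a distance of 232940 bases.

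ENSG00000229855 had the largest difference of the 7 genes. EtOH replicates 1, 2 and 3 held 107, 87.4 and 121 CPM, and Tet replicates 1, 2 and 3 held 619, 629 and 617 CPM. The 3 libraries labelled Tet lay within a narrow band far above the 3 labelled EtOH, with means of 622 ± 6.71 and 105 ± 16.9 CPM (SD, n = 3 each), a 5.91-fold ratio. The log2 fold change of 2.56 (SE 0.17, 95% interval 2.18 to 2.95) was between 2.45 and 2.65 in fits that each left out 1 library. In bulk RNA, a change in the share of cells that transcribe a gene and a change in RNA per cell cannot be told apart.

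ENSG00000279860 moved the same way at a lower level. It stood at 15.3, 8.04 and 13.5 CPM in the EtOH-labelled libraries and at 68.0, 52.7 and 57.2 CPM in the Tet-labelled ones. EtOH replicate 2 was the lowest of its group for both non-coding genes, and no EtOH value came near a Tet value. The ratio of means was 4.83, and the log2 fold change was 2.27 (SE 0.25, 95% interval 1.69 to 2.85). Per exon length, the level of ENSG00000279860 was 0.422, 0.273 and 0.331 of that of ENSG00000229855 in the EtOH-labelled libraries and 0.326, 0.248 and 0.275 in the Tet-labelled ones (TPM ratio, means 0.342 ± 0.0748 and 0.283 ± 0.0395, SD, n = 3 each). These ratios overlapped, with the lower mean in the Tet-labelled libraries. Both genes were selected as higher on this contrast, so their ratio is given as a description only. Neither gene shares exon bases with any other gene in the tables, and with 3132 bases between them the values do not show whether they are parts of 1 transcript.

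**Figure D1:**
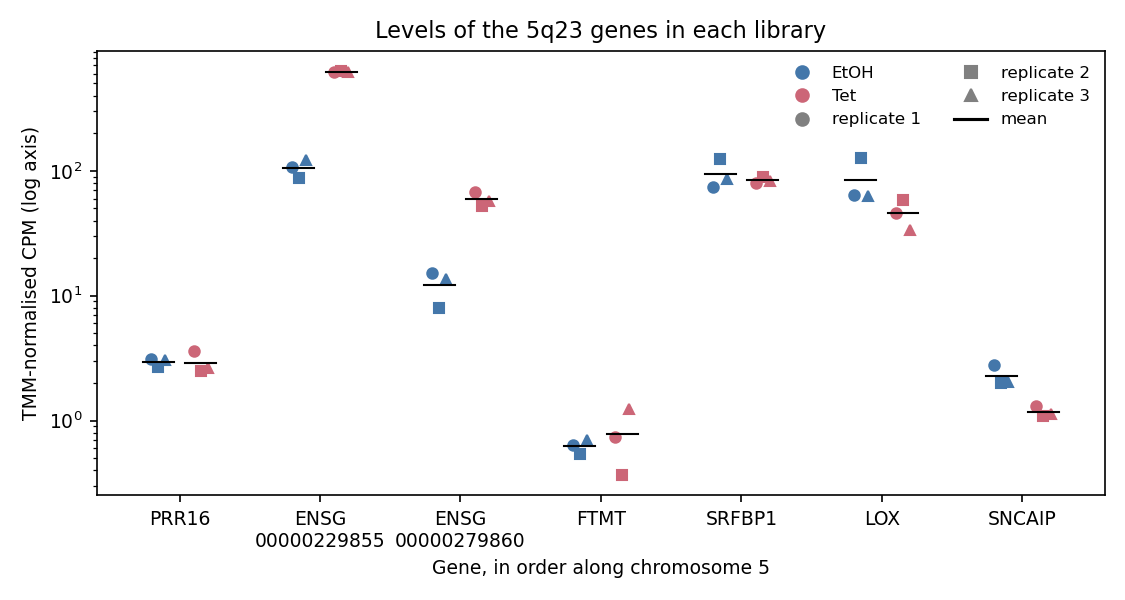
Levels of the 7 genes in every library in TMM-normalised CPM on a log axis, ordered along chromosome 5, with EtOH in blue, Tet in red, marker shapes for replicates and bars for group means. Both non-coding genes form separate groups, *PRR16*, *FTMT* and *SRFBP1* overlap, and *LOX* and *SNCAIP* are lower in all 3 libraries labelled Tet, with EtOH replicate 2 highest for *LOX*.

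The same shift can be read against the whole transcriptome. Ranked by TPM (a level per exon length, scaled to a common total) among all genes, ENSG00000229855 stood at 2744, 3967 and 2487 in the EtOH-labelled libraries and at 198, 244 and 204 in the Tet-labelled ones. Among 17831 genes annotated as lncRNA or TEC, its TPM rank went from 235, 386 and 217 to 19, 17 and 23. In TPM, its mean was 42.6 ± 5.18 in the EtOH-labelled libraries, close to *LOX* at 42.9 ± 21.2 and below *SRFBP1* at 86.0 ± 29.1 (SD, n = 3 each). In libraries labelled Tet its mean of 241 ± 19.0 TPM was the highest of the 7 genes, and ENSG00000279860 at 68.4 ± 12.6 TPM was within the spread of *SRFBP1* at 71.8 ± 6.84 TPM. *PRR16* (3.64 and 3.44 TPM), *FTMT* (1.83 and 2.14 TPM) and *SNCAIP* (0.877 and 0.434 TPM) were the lowest in both groups, and *PRR16* and *FTMT* did not differ beyond their spread in libraries labelled Tet.

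None of the protein-coding neighbours on either side was called. Of the 5, 0 passed the threshold in edgeR's quasi-likelihood test (2 at an unadjusted p under 0.05, both lower in libraries labelled Tet). Of the 22443 genes tested, 0.236% were called. With 5 genes, a count of 0 is near that share and is not a result about the neighbours. DESeq2 called 0 of the 5 as well. A fit with the replicate number as a block called 1, and it called 675 of all genes where the reported fit called 53. All 7 members passed the filter on low counts.

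Upstream, *PRR16* was at 3.10, 2.71 and 3.04 CPM in the EtOH-labelled libraries and at 3.58, 2.48 and 2.62 CPM in the Tet-labelled ones. The libraries labelled Tet held both the highest and the lowest value. The log2 fold change was -0.03 (SE 0.27, 95% interval -0.65 to 0.59, adjusted p = 0.986 by edgeR). Without EtOH replicate 2 it was -0.08 (adjusted p = 0.902 by edgeR). The interval does not exclude a small rise.

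Downstream, *FTMT* rested on 13 to 49 counts per library. Its level was 0.642, 0.541 and 0.694 CPM in the EtOH-labelled libraries and 0.744, 0.367 and 1.23 CPM in the Tet-labelled ones. The Tet values bracketed the EtOH values, with the highest in Tet replicate 3. At this depth the log2 fold change of 0.32 (SE 0.50, adjusted p = 0.889 in edgeR) had a 95% interval of -0.82 to 1.47, so a change of moderate size was not detectable. The log2 fold change was 0.24 without EtOH replicate 2 (adjusted p = 0.850 in edgeR).

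*SRFBP1* was well expressed, at 73.9, 125 and 85.6 CPM in the EtOH-labelled libraries and 79.3, 89.9 and 82.9 CPM in the Tet-labelled ones. Replicate 2 was the highest of each group and the groups overlapped. The log2 fold change was -0.18 (SE 0.21, 95% interval -0.65 to 0.30, adjusted p = 0.840 by edgeR), and 0.08 without EtOH replicate 2.

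*LOX* had lower values in all 3 libraries labelled Tet. It stood at 63.8, 128 and 63.1 CPM in the EtOH-labelled libraries and at 45.6, 58.0 and 33.5 CPM in the Tet-labelled ones. The groups did not overlap, but EtOH replicates 1 and 3 lay close to Tet replicate 2, and EtOH replicate 2 stood far above the rest of its group. Tet replicate 2 was likewise the highest of its own group. The log2 fold change of -0.89 (SE 0.31, 95% interval -1.61 to -0.17) did not pass the threshold (adjusted p = 0.350 by edgeR), and it was -0.47 (adjusted p = 0.248) without EtOH replicate 2. With the replicate number as a block it was -0.85 (adjusted p = 0.0166 by edgeR). The fibroblast transcription factor *PRRX1* was likewise highest in EtOH replicate 2 and lower in all libraries labelled Tet, at 59.5, 136 and 62.5 CPM against 33.6, 55.5 and 38.5 CPM, with no overlap between the groups. Its log2 fold change was -1.02 (adjusted p = 0.317 by edgeR), and -0.51 (adjusted p = 0.199) without EtOH replicate 2. Over the whole list of 9 mesenchymal and fibroblast markers, 0 of 7 tested were called, against 0.236% of all genes tested. The summed level was 168 to 288 CPM in the EtOH-labelled libraries and 180.0 to 273 CPM in the Tet-labelled ones, and the collagen gene *COL1A2* was at 0 throughout. Other markers of the list were higher in the Tet-labelled libraries, with log2 fold changes of 1.03 for the collagen gene *COL3A1* (no overlap), 1.84 for *SNAI2* and 0.59 for *TWIST1* (both overlapping). Without EtOH replicate 2, *COL3A1* and *SNAI2* were called higher (adjusted p = 0.0147 and 0.0451 by edgeR), in a fit that called 692 of all genes. The part of these markers in the *LOX* values was not tested. *LOX* and *SRFBP1* overlap on opposite strands and reads were counted without strand, but the shared bases are 2.47% of *LOX* exons and 4.44% of *SRFBP1* exons.

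*SNCAIP* was low in every library and lower in the Tet-labelled ones. Its level was 2.79, 2.02 and 2.05 CPM in the EtOH-labelled libraries and 1.31, 1.10 and 1.13 CPM in the Tet-labelled ones. No values overlapped and both groups were tight, the highest being EtOH replicate 1. The log2 fold change was -0.95 (SE 0.31, 95% interval -1.66 to -0.25, adjusted p = 0.297 by edgeR) and stayed between -1.05 and -0.81 in fits without 1 library. Without EtOH replicate 2 it was -1.03 (adjusted p = 0.121 by edgeR). *SNCAIP* shares 6.41% of its exon bases with the antisense genes ENSG00000272139 and *MGC32805*. Groups free of overlap with lower values in libraries labelled Tet made up 8.28% of all genes tested, so the finding of *LOX* and *SNCAIP*, 2 of 5 neighbours, is read against that share.

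Widening the view to all genes that start within 2.5 Mb of ENSG00000229855 gave 69 genes, 67 besides the non-coding pair. Of these, 26 were tested and 0 were called by edgeR, against 0.236% of all genes tested. At that share, a count of 0 among 26 genes is not a result about the window. At an unadjusted p under 0.05, 0 were higher in libraries labelled Tet (5.83% of all genes tested) and 4 were lower (4.94% of all genes tested), namely *LOX*, *SNCAIP*, *ZNF474* and *PRDM6*. DESeq2 and a fit without the filter each called 1 of them, *PRDM6*, and the fit with the replicate block called *PRDM6* and *LOX*, all lower. These fits also called more of all genes than the 53 of the reported fit, up to 675 with the replicate block. The median log2 fold change of the 26 was -0.11, with 9 positive and 17 negative, against a median of -0.01 over all genes tested. In the narrower window of 1 Mb the median over 8 genes was -0.33, and in 5 Mb over 37 genes it was -0.07. In either, 0 were called, which again is not a result at that share. At an unadjusted p under 0.05, the 1 Mb window held 3 lower and 0 higher, and the 5 Mb window 4 lower and 1 higher. The highest log2 fold change in 5 Mb besides the pair was 1.41.

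**Figure D2:**
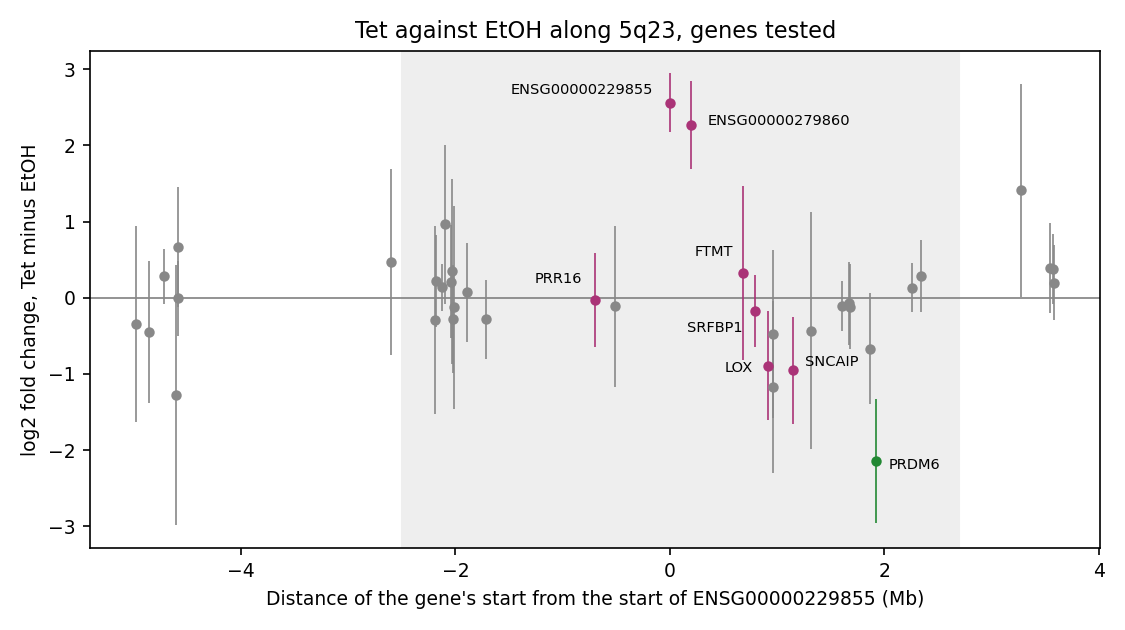
Log2 fold change with its 95% interval for every tested gene within 5 Mb, plotted by the distance of its start from that of ENSG00000229855 in Mb, with the 7 members in purple, *PRDM6* in green, other genes in grey and the 2.5 Mb window shaded. The non-coding pair stands at 2.56 and 2.27, and the intervals of the nearest tested genes on both sides include 0.

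*PRDM6*, a transcription factor of the PRDM family known from smooth muscle, had the largest difference of any tested gene in the window other than the pair, in the opposite direction. It lies 1729 kb past the end of ENSG00000229855 on the plus strand. Its level was 1.93, 2.81 and 2.15 CPM in the EtOH-labelled libraries and 0.496, 0.423 and 0.629 CPM in the Tet-labelled ones. Every Tet value was below every EtOH value by a wide margin. The log2 fold change was -2.14 (SE 0.36, 95% interval -2.95 to -1.33), just short of the threshold (adjusted p = 0.0642 by edgeR), with adjusted p = 0.0291 without EtOH replicate 2 and 0.0174 with the replicate block. Over all alternatives its adjusted p ranged from 0.00014 to 0.339, the highest without Tet replicate 1. Between *LOX* and *SNCAIP*, the zinc finger gene *ZNF474* was at 0.530, 0.974 and 0.529 CPM against 0.213, 0.395 and 0.277 CPM, and its log2 fold change was -1.17 (SE 0.50, adjusted p = 0.441 in edgeR). It shares 7.44% of its exon bases with ENSG00000250803, whose log2 fold change was -0.48 and whose groups overlapped.

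Besides the pair, *LOX*, *SNCAIP* and *PRDM6*, the genes of the window with a mean of at least 1 CPM showed smaller differences. Upstream, the log2 fold change was 0.22 for *DTWD2*, which modifies transfer RNA, 0.14 for *DMXL1*, a regulator of the vacuolar proton pump, 0.07 for *TNFAIP8*, a regulator of cell death, and -0.28 for *HSD17B4*, an enzyme of peroxisomal beta-oxidation. Downstream it was -0.11 for *SNX2* and -0.12 for *SNX24*, both sorting nexins, -0.67 for the cyclophilin *PPIC*, 0.13 for the centriole protein *CEP120* and 0.29 for the kinase *CSNK1G3*. None of these passed the threshold in edgeR, and their groups overlapped. The short genes *MIR1244-2* (-0.30) and *RNU6-701P* (-0.28) and the processed pseudogene *SEPTIN7P10* (0.21) overlapped as well. So did ENSG00000260686 (-0.07), whose exons lie wholly inside those of *SNX2*.

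One tested gene of the window besides the pair had all libraries labelled Tet above all labelled EtOH, against 9.2% of all genes tested. This was *DMXL1-DT*, a lncRNA whose start lies 2094 kb upstream. It was at 0.446, 0.288 and 0.430 CPM in the EtOH-labelled libraries and 1.06, 0.536 and 0.705 CPM in the Tet-labelled ones, all low. Its log2 fold change was 0.96 (SE 0.46, adjusted p = 0.513 in edgeR). It shares 20.6% of its exon bases with other genes.

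Closer to the pair, only genes too low to be tested lay between it and *PRR16* or *FTMT*. Of the window's 69 genes, 14 had no count in any library. The pseudogene ENSG00000250847, on the minus strand inside an intron of ENSG00000229855 (chr5:121195980-121196210), had 4, 0 and 1 counts in the EtOH-labelled libraries and 10, 15 and 6 in the Tet-labelled ones. The lncRNA ENSG00000248927, which ends 374 kb upstream on the plus strand, had 4, 1 and 4 counts against 7, 14 and 11.5. Both were higher in all libraries labelled Tet and were named after their values were seen, and since strand was not used in counting, reads of either strand count for the first. The pseudogenes ENSG00000251135 (2, 0 and 10 against 2, 4 and 6 counts) and ENSG00000248853 (2, 0 and 1 against 0, 2 and 2 counts), which lie between the lncRNA and the pair, overlapped.

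Summed over the window, the excess in libraries labelled Tet was carried by the non-coding pair. ENSG00000229855 took 9.04, 6.54 and 9.91% of the window's reads in the EtOH-labelled libraries and 34.0, 33.2 and 35.8% in the Tet-labelled ones (means 8.49% ± 1.75 and 34.4% ± 1.32, SD, n = 3 each). The window as a whole summed to 1249 ± 76.9 CPM with EtOH and 1812 ± 85.5 CPM with Tet on the label (SD, n = 3 each). The other 67 genes together gave 1131 ± 94.9 CPM in the EtOH-labelled libraries and 1131 ± 81.5 CPM in the Tet-labelled ones, a difference far smaller than the spread within either group. This sum is set by the better expressed genes and nets differences of both directions. Means were 218 and 266 CPM for *CSNK1G3* and 84.8 and 45.7 CPM for *LOX* (EtOH, then Tet). Genes with few counts near the pair add little to it.

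**Figure D3:**
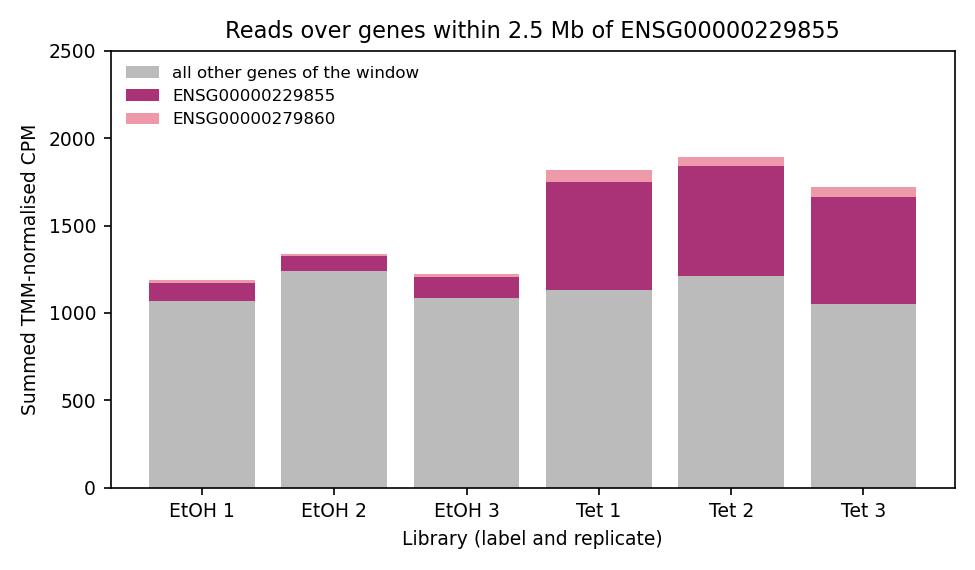
Summed TMM-normalised CPM of the 69 genes within 2.5 Mb in each library, stacked as all other genes (grey), ENSG00000229855 (purple) and ENSG00000279860 (pink). The grey parts lie at a similar height in all 6 libraries, and the coloured parts are larger in the 3 libraries labelled Tet.

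Relatives and partners of the coding neighbours were read for the same contrast. By edgeR 0 of the 11 tested were called, against 0.236% of all genes tested, and DESeq2 called 0. At an unadjusted p under 0.05 there were 0, against 5.83% of all genes tested higher and 4.94% lower in libraries labelled Tet. With 11 genes, a count of 0 is not a result about the relatives. Among the lysyl oxidases that share the activity of *LOX*, the log2 fold change was 0.47 for *LOXL1*, -0.44 for *LOXL2*, -0.12 for *LOXL3* and 0.67 for *LOXL4*, all with overlapping groups and all at means under 5 CPM. Of the cytosolic ferritins related to *FTMT*, the heavy chain *FTH1* had 0.11 and the light chain *FTL* 0.51, with wide spread within groups. The ubiquitin ligases that bind synphilin-1, *SIAH1* and *SIAH2*, had 0.11 and -0.28, and *SNCB* and *SNCG* were too low to be tested. Serum response factor *SRF* had -0.06 and its coactivators *MRTFA* and *MRTFB* 0.33 and 0.14. *MRTFA* was higher in all libraries labelled Tet (14.1, 16.4 and 17.1 CPM against 17.6, 19.5 and 22.6 CPM, adjusted p = 0.581 by edgeR).

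**Figure D4:**
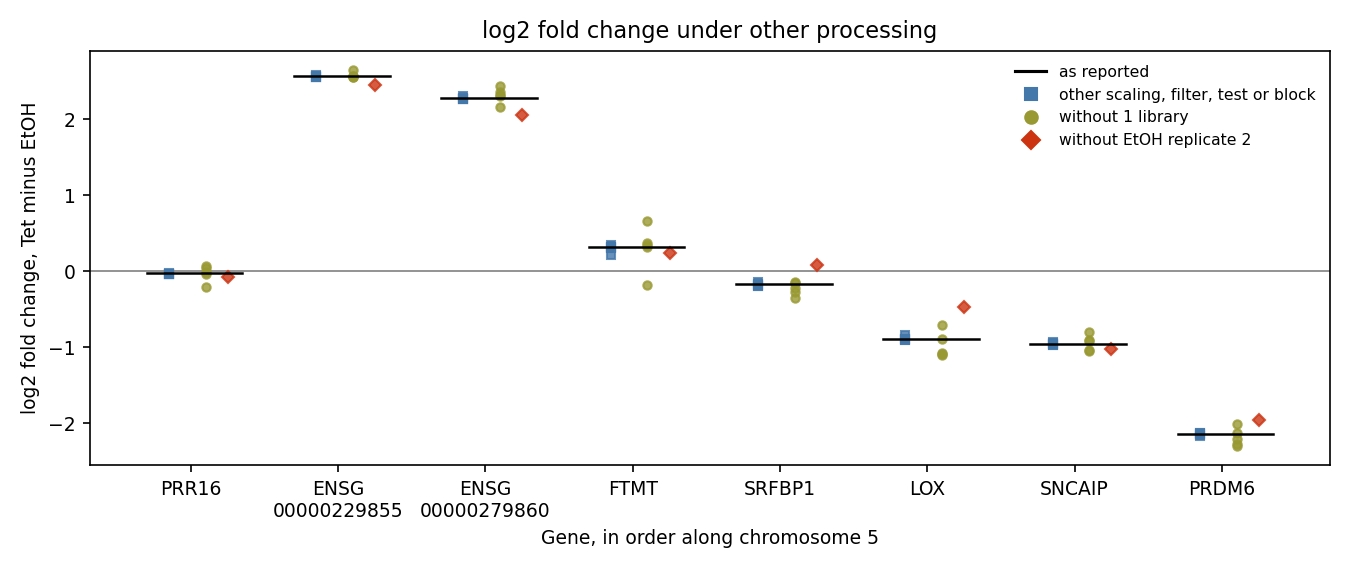
Log2 fold change of the members and *PRDM6* as reported (black line), under other scaling, filters, tests or the replicate block (blue), and without 1 library (olive, or red for EtOH replicate 2). ENSG00000229855 stays between 2.45 and 2.65, *LOX* moves to -0.47 without EtOH replicate 2, and *PRR16*, *FTMT* and *SRFBP1* fall on both sides of 0.

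Outside the window, 10077 genes with a mean of at least 5 CPM were ranked by the Pearson correlation of their log2 CPM with that of ENSG00000229855 over the 6 libraries. The libraries fall into 2 groups on this gene, so the measure mostly orders genes by how cleanly the groups part, and it is given as a description. The most alike were *SCN2A*, a neuronal sodium channel (r = 0.9995), *ZNF84*, a zinc finger protein (0.9991), *ATP8A2*, a phospholipid flippase (0.998), *SORBS2*, a cytoskeletal adaptor (0.996), and *VSTM2A*, a secreted immunoglobulin-domain protein (0.996). ENSG00000279860 had 0.983. *SCN2A* was at 7.67, 6.67 and 8.20 CPM in the EtOH-labelled libraries and 18.9, 19.6 and 19.6 CPM in the Tet-labelled ones, a log2 fold change of 1.36. *SORBS2* had 1.39, 1.37 and 1.52 CPM against 8.51, 10.04 and 9.76 CPM, a log2 fold change of 2.72 and the only one of the 5 above that of ENSG00000229855. The smallest of the 5 was that of *ZNF84*, 0.59, at 388 to 415 CPM against 601 to 616 CPM. The values for *ATP8A2* and *VSTM2A* were 1.19 and 1.14.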

How the data were processed

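RNA sequencing values were used for 6 libraries, 3 labelled EtOH and 3 labelled Tet. The deposited values are estimated counts per gene: per the file headers, the authors ran featureCounts 1.6.4 on exons and uniquely aligned read pairs, dividing pairs evenly among overlapping genes and without strand, whereas the labels name STAR 2.7.1a, featureCounts 1.5.1 and GRCh38. Values were rounded to whole numbers, since the planned test had assumed whole counts. The tables hold 92 spike-in rows, all at 0, which were left out. Genes were kept by filterByExpr, scaled by TMM and tested with edgeR 4.0.16 in R 4.3.3 (quasi-likelihood F test), group only, two-sided, with Benjamini-Hochberg adjustment over all 22443 genes tested and a threshold of 0.05. The SE is the size of the log2 fold change divided by the square root of F, and intervals are at 95%. Estimated counts were also scaled to TPM by exon length. The intervals and floors cover counting and library spread only. The fit was tested on simulated data. DESeq2 1.42.0 and other alternatives are given in the closing section.

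The members and gene lists were chosen with earlier results of these data known. Genes named were the members, window genes with a mean of at least 1 CPM, relatives of the members, *MYCN* and the 5 genes most like ENSG00000229855; any other was named after its values were seen. Some genes of these lists and the sequence of the locus are not reported here. Coordinates are on GRCh38.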

Additional observations from a re-analysis of the deposited data

How the results depend on the processing

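Over the 40 genes named and tested, 240 comparisons with alternatives that kept all libraries left 232 on the same side of the threshold and in the same direction, moved 8 past it and reversed 0. Of 240 fits without 1 library, 192 were the same, 22 lost the threshold, 3 gained it and 23 reversed. Over all genes, 53 calls became 302 without a filter, 485 with DESeq2 and 675 with the replicate block, and ranged from 0 (without Tet replicate 1 or 3, where unadjusted p was under 0.05 for 1865 and 2067) to 692 (without EtOH replicate 2) when 1 library was left out. Calls were 2 without EtOH replicate 1 and 1 without EtOH replicate 3 or Tet replicate 2. Within 2.5 Mb, the 2 calls became 4 with the replicate block, which added *LOX* and *PRDM6*, and ranged from 0 to 3 without 1 library. The 2 calls as reported are the non-coding pair, chosen on this contrast, and its calls are not read as a test. Of the coding neighbours, the 0 calls became 1 with the replicate block (*LOX*). After removal of the group means, libraries with the same number correlated at 0.0603, 0.510 and 0.219, all positive. The fit was planned on group only, and these values do not settle whether the numbers mark pairs. Calls that turn on this choice, such as *LOX* and *PRDM6*, are given both ways. Fits without 1 library that reversed gave ranges of -0.21 to 0.070 for *PRR16*, -0.18 to 0.67 for *FTMT*, -0.35 to 0.081 for *SRFBP1*, -0.023 to 0.40 for *DTWD2*, -0.60 to 0.50 for *MIR1244-2*, -0.15 to 0.46 for *TNFAIP8*, -0.18 to 0.075 for ENSG00000260686, -0.37 to 0.065 for *SNX24*, -0.064 to 0.76 for *LOXL1*, -0.34 to 0.039 for *LOXL3*, -0.28 to 0.47 for *FTH1*, -0.39 to 0.84 for *FTL*, -0.18 to 0.34 for *SIAH1*, -0.19 to 0.085 for *SRF*, -0.031 to 0.30 for *MRTFB* and -0.22 to 0.21 for *MYCN*. The causes were not tested. Depth limits *FTMT* and the genes too low to be tested.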
